A study of Mus musculus with 15 samples.

Results

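Heparan and chondroitin sulfate proteoglycans were followed through 10 named genes: the heparan sulfate sulfotransferase genes Hs6st1, Hs6st2, Hs2st1 and Ndst1, the endosulfatase gene Sulf2, the chondroitin sulfotransferase genes Chst15 and Chst11, and the core protein genes Sdc1, Sdc4 and Gpc1. They were taken by symbol, as all probe sets with exactly 1 gene symbol that is on this list. Probe sets were found for 9 of the 10 genes, 23 probe sets among the 45101 of the array and 9 genes among 18193; Ndst1 was not analysed here. The list was chosen on measured values: Hs6st2 for its signal in E1KD against NMuMG, and Chst15 for its lower signal in L1P and L2P against E1KD. Differences in these 3 comparisons are therefore given as a description without a test for every gene on the list, and Hs6st2 and Chst15 carry no p-value anywhere. The other 7 genes were tested in M1P against E1KD, L2P against L1P and L1P against M1P.

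RNA from 5 mouse cell lines was measured on Affymetrix expression arrays, with 3 arrays a line. L2P was recovered from lungs after L1P cells were put into the mammary fat pad, L1P from lungs after E1KD cells were put there, and M1P from a fat pad tumour of E1KD cells. E1KD is the NMuMG line with hnRNP E1 silenced, and NMuMG is the wild-type normal murine mammary gland line, which is not tumorigenic. L2P, L1P, M1P and E1KD thus all carry the silencing, NOD/SCID mice were the hosts, each line is 1 line, and no line with a control vector was used here.

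Proteoglycans are proteins that carry long sulfated sugar chains on the cell surface and in the matrix. Heparan sulfate chains are sulfated in the Golgi by N-, 2-O- and 6-O-sulfotransferases, and the resulting pattern determines which growth factors, chemokines and matrix proteins bind. Chondroitin sulfate is built on the same linker sugar and sulfated by its own enzymes. In mammary epithelium, syndecans are the main cell-surface carriers and act as co-receptors for growth factors and matrix.

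Pcbp1, which encodes hnRNP E1, had a mean log2 signal of 8.15 in L2P, 8.49 in L1P, 9.83 in M1P and 9.25 in E1KD, against 12.68 in NMuMG. The silenced lines and NMuMG thus matched their labels in this gene, which cannot check the labels among the silenced lines. The epithelial genes Krt8 (13.79 to 14.17 across the lines), Krt18, Krt19 and Cdh1 had high signals in every line, whereas Epcam (5.03 to 5.57) and Cldn7 (3.16 to 3.44) did not. Krt7, on the same marker list, averaged 4.17 in L2P, 4.37 in L1P, 4.65 in M1P and 4.81 in E1KD, against 10.27 in NMuMG, and was the 1 of 8 epithelial genes that passed in E1KD against NMuMG. Array medians lay between 4.17 and 4.26. The M1P arrays stood apart from each other: they correlated at 0.93 to 0.978, against 0.979 to 0.996 within each other line, and M1P array 1 had the lowest upper quartile (6.33, against 6.64 to 6.86 on the other arrays). The mean distance to the other arrays of the line was 121, 89.2 and 111 for M1P arrays 1, 2 and 3, and 69 for L2P array 1, against 36.8 to 52.7 for the rest. Values that rest on M1P are therefore also given without M1P array 1 or with M1P array 3 alone, and those on L2P without L2P array 1 where it matters. The setting with M1P array 3 alone was taken over from an earlier analysis, although array 3 is itself far from the others and array 2 is the closest. With 1 array, the spread in the fit comes from the other lines and M1P is assumed to vary like them, which its own arrays do not; a p-value from it is shown only where a call ended or was absent. All levels are log2 signals. Beside a difference, ± gives its standard error; adjusted p-values come from 1 limma fit over the 18193 genes.

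**Figure D1:**
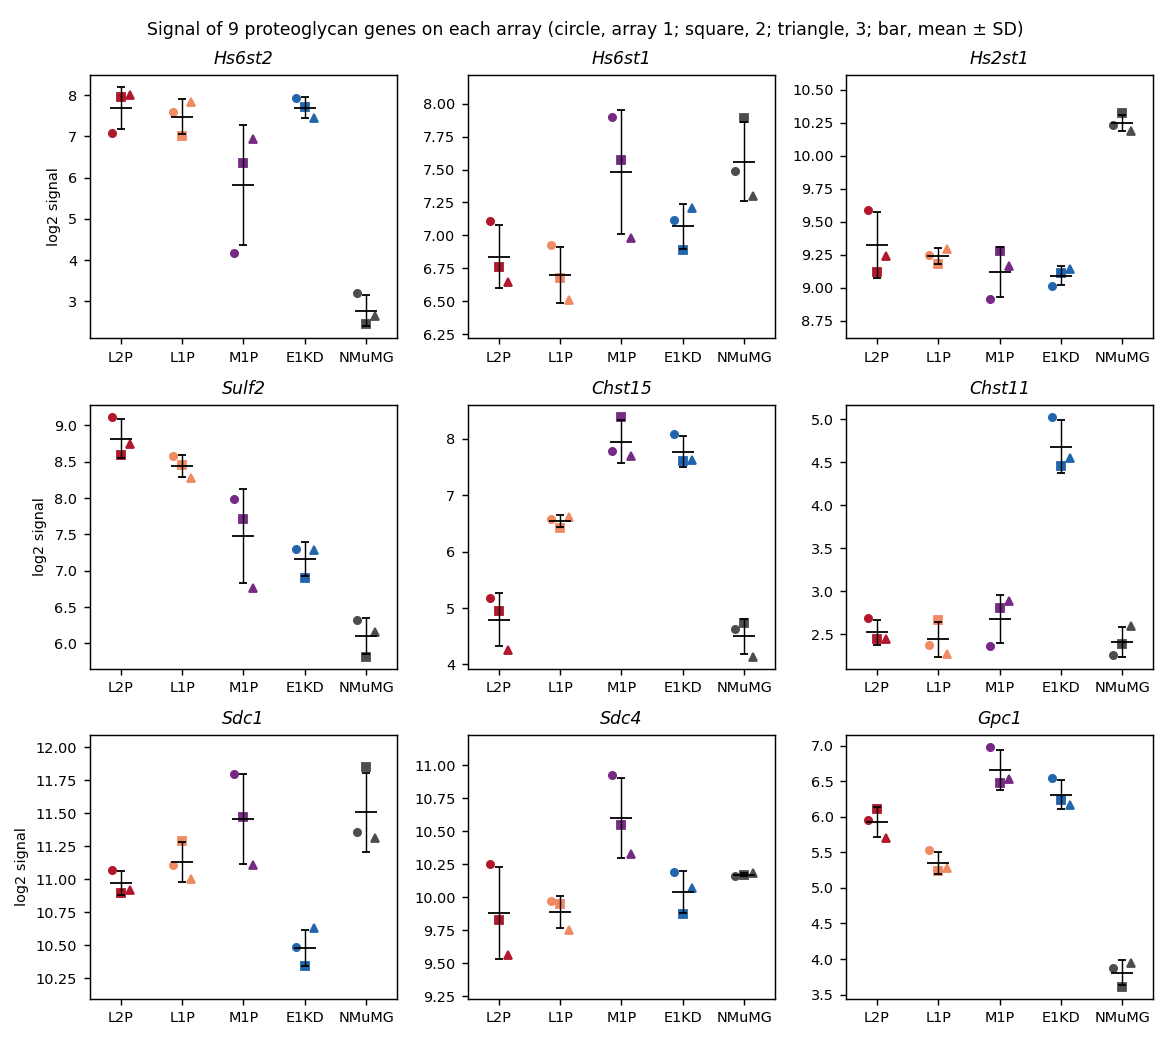
Log2 signal (y axis) of the probe set that represents each of 9 genes in L2P, L1P, M1P, E1KD and NMuMG (x axis), 1 marker an array, with bars for the mean ± SD of 3 arrays. Hs6st2 and Gpc1 are lowest in NMuMG, Chst11 is high in E1KD, Chst15 is high in M1P and E1KD, and Hs2st1 is highest in NMuMG; the y axes differ between panels.

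Hs6st2 encodes a heparan sulfate 6-O-sulfotransferase. The gene had log2 signals of 7.09, 7.96 and 8.01 in L2P, 7.60, 7.01 and 7.83 in L1P, 4.17, 6.35 and 6.93 in M1P, and 7.94, 7.71 and 7.45 in E1KD, against 3.19, 2.45 and 2.65 in NMuMG. Every array of the silenced lines was above all NMuMG arrays, the E1KD, L1P and L2P arrays overlapped, and M1P was lower and widely spread. The log2 difference of E1KD from NMuMG was 4.93 ± 0.54, or 30.6-fold, with means of 7.70 ± 0.25 in E1KD and 2.77 ± 0.38 in NMuMG (SD, n = 3 each), the second near the low end of the scale. The lung lines stayed close to E1KD, with differences of -0.01 ± 0.54 in L2P, or 0.29 without L2P array 1, and -0.22 ± 0.54 in L1P. M1P differed from E1KD by -1.88 ± 0.54 with all arrays by -1.06 without M1P array 1 and by -0.77 with M1P array 3 alone. Of its 4 probe sets, 1450047_at represents the gene. A second, 1420938_at, was higher in E1KD than in NMuMG by 1.68, and the other two, 1420939_at and 1446257_at, stayed between 2.25 and 3.59 on every array. Across the 15 arrays, the genes whose pattern was most like that of Hs6st2 were Serpinb9b (Pearson r = 0.983), Zfp518b (0.979) and Bdnf, a neurotrophin gene (0.974). These arrays share 5 lines, so the likeness mostly restates differences between lines; Serpinb9b, for example, averaged 11.66 in E1KD and 8.14 in NMuMG.

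RefSeq (GRCm38.p6) lists 2 start windows for Hs6st2, on the minus strand, each with 250 bases before and 50 after a start. They are shown because this is the gene with the widest range here; capitals mark any of 4 searched motifs on either strand: the GC box GGGCGG, the Snail-type E-box CAGGTG, the TEAD motif GGAATG and the TATA box TATAAA, which do not overlap in these windows.
Hs6st2 chrX:51681553-51681852: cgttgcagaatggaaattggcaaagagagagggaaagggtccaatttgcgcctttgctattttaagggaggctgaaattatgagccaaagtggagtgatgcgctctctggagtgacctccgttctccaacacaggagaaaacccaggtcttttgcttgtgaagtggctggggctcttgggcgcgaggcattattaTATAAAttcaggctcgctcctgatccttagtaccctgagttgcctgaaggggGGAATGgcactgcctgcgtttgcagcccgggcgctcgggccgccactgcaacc
Hs6st2 chrX:51680428-51680727: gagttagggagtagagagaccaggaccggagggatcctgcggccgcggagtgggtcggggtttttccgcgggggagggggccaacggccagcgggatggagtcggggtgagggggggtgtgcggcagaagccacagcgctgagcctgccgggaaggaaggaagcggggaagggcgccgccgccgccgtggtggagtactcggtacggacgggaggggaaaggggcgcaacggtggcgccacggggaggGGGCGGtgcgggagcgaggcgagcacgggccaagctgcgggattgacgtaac
The first window held 1 TATAAA beginning 55 bases before the start and 1 GGAATG beginning 3 bases before it, and had a GC content of 53.7%. The second held 1 GGGCGG, beginning 2 bases before the start, and had a GC content of 71.7%. Of all 32851 listed windows, 13.6% held TATAAA, 14.7% GGAATG, 35.7% GGGCGG and 20.2% CAGGTG. Windows were listed for 8 of the 9 genes.

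Hs6st1, which encodes the other 6-O-sulfotransferase on the list, did not share this pattern. The gene had 7.11, 6.76 and 6.65 in L2P, 6.93, 6.68 and 6.51 in L1P, 7.90, 7.57 and 6.98 in M1P, and 7.12, 6.89 and 7.21 in E1KD, against 7.49, 7.89 and 7.30 in NMuMG. E1KD was below NMuMG on every array by a small amount (-0.49 ± 0.23), while L2P (-0.23 ± 0.23) and L1P (-0.37 ± 0.23) overlapped E1KD. In the test of L1P with M1P, Hs6st1 fell (-0.78 ± 0.23, adjusted p = 0.0212, L1P lower on 3 of 3 arrays). With M1P array 3 alone the difference was -0.28 (adjusted p = 0.537). The call also ended without M1P array 1 (0.0865), L1P array 2 (0.0525) or L1P array 3 (0.0832), and in the fit of only L1P and M1P (0.111), in a range of 0.00178 to 0.537 over 24 alternatives. M1P against E1KD did not pass (0.41 ± 0.23, adjusted p = 0.168), but passed without M1P array 3 (0.66, adjusted p = 0.0199), and its sign turned with M1P array 3 alone (-0.09, adjusted p = 0.889).

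Hs2st1 encodes the 2-O-sulfotransferase that acts on uronic acids of heparan sulfate. Its representing probe set, 1450729_at, read 9.59, 9.12 and 9.24 in L2P, 9.25, 9.18 and 9.29 in L1P, 8.91, 9.28 and 9.16 in M1P, and 9.01, 9.11 and 9.14 in E1KD, against 10.23, 10.32 and 10.19 in NMuMG. All 12 arrays of silenced lines were below all 3 NMuMG arrays, and the silenced lines were close to each other. The E1KD difference from NMuMG was -1.16 ± 0.13, or 2.23-fold lower, and the differences from E1KD were 0.23 ± 0.13 in L2P and 0.16 ± 0.13 in L1P. The other probe sets did not share it. For 1422739_at the difference was -0.07, for 1450730_at -0.14 and for 1440905_at 0.77. In M1P against E1KD the same 3 probe sets gave -1.20, -1.09 and -0.63, and 1450730_at was low on M1P array 1 (4.98, against 7.13 and 7.38 on the other M1P arrays and 7.48 to 7.69 in E1KD). The direction for Hs2st1 therefore depends on the probe set. M1P against E1KD did not pass (0.03, 95% interval -0.26 to 0.32, adjusted p = 0.852).

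Sulf2 encodes an extracellular endosulfatase that removes 6-O-sulfates from finished heparan sulfate chains. Its signals were 9.12, 8.60 and 8.74 in L2P, 8.58, 8.45 and 8.28 in L1P, 7.99, 7.71 and 6.76 in M1P, and 7.30, 6.90 and 7.29 in E1KD, against 6.32, 5.82 and 6.16 in NMuMG. L2P arrays lay above all L1P arrays, L1P above all M1P and E1KD arrays, and E1KD above all NMuMG arrays, while M1P and E1KD overlapped. The gene was higher by 1.66 ± 0.27 in L2P and 1.28 ± 0.27 in L1P than in E1KD, and by 1.06 ± 0.27 in E1KD than in NMuMG. In the test of L1P with M1P, Sulf2 rose (0.95 ± 0.27, 1.94-fold, adjusted p = 0.0182), by 1.21 without M1P array 1 (adjusted p = 0.00867), and the difference was 1.68 with M1P array 3 alone. The call ended without L1P array 1 (0.0537) and in the fit of only L1P and M1P (0.113), the highest of 24 alternatives. L2P against L1P did not pass (0.39 ± 0.27, 95% interval -0.19 to 0.96, adjusted p = 1), nor did M1P against E1KD (0.32 ± 0.27, adjusted p = 0.344), which passed without M1P array 3 (0.69, adjusted p = 0.0151) and turned with M1P array 3 alone (-0.41, adjusted p = 0.385). A second probe set, 1430388_a_at, was higher in L2P (1.60) and L1P (1.16) than in E1KD. The third, 1442408_at, was lower by a small amount in both (-0.12 in L2P and -0.14 in L1P) and overlapped E1KD. In L1P against M1P these probe sets gave 0.68 and 0.29, with arrays that overlapped. Their arrays overlapped in L2P against L1P as well.

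**Figure D2:**
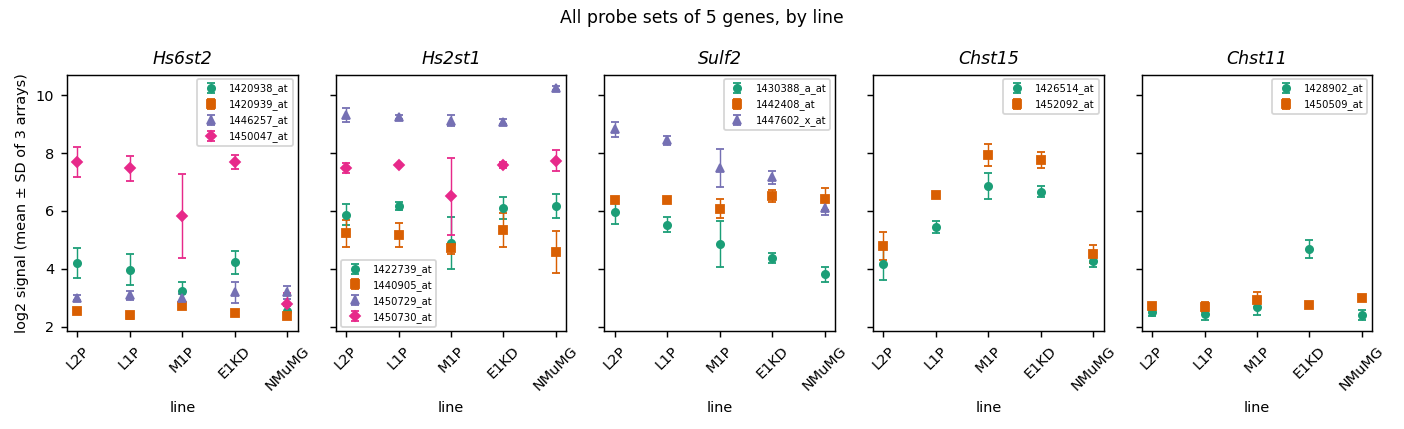
Mean log2 signal ± SD of 3 arrays (y axis) in L2P, L1P, M1P, E1KD and NMuMG (x axis) for every probe set of Hs6st2, Hs2st1, Sulf2, Chst15 and Chst11. Both Chst15 probe sets follow each other, while for Hs6st2, Hs2st1, Sulf2 and Chst11 at least 1 probe set stays level where the representing one moves.

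Chst15 encodes the enzyme that adds a 6-O-sulfate to 4-O-sulfated GalNAc and so makes chondroitin sulfate E. It read 5.17, 4.94 and 4.26 in L2P, 6.58, 6.42 and 6.62 in L1P, 7.79, 8.39 and 7.69 in M1P, and 8.09, 7.61 and 7.63 in E1KD, against 4.62, 4.73 and 4.14 in NMuMG. L2P was below all L1P arrays and overlapped NMuMG, L1P was below all M1P and E1KD arrays, and M1P overlapped E1KD. The difference from E1KD was -2.98 ± 0.25 in L2P, or 7.91-fold lower, and -1.24 ± 0.25 in L1P. L2P differed from L1P by -1.75 ± 0.25 (3.36-fold lower), L1P from M1P by -1.42 ± 0.25, and E1KD from NMuMG by 3.28 ± 0.25 (9.7-fold higher). The second probe set, 1426514_at, had the same signs, with -2.50 for L2P and -1.21 for L1P against E1KD, and 2.39 for E1KD against NMuMG. M1P did not differ from E1KD beyond the spread of the arrays (0.18 ± 0.25). The genes most like Chst15 over the 15 arrays were Pde8a, a cyclic AMP phosphodiesterase gene (r = 0.935), Krtap1-5 (0.933) and the alpha-tubulin gene Tuba1a (0.93). Pde8a averaged 5.28 in L2P, 6.24 in L1P, 8.11 in M1P and 7.90 in E1KD, against 3.40 in NMuMG, while the line means of Krtap1-5 lay between 2.88 and 3.75.

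RefSeq (GRCm38.p6) lists 2 overlapping start windows for Chst15 on the minus strand of chromosome 7, shown because the gene's level separates the lung lines from E1KD. Capitals mark the same 4 motifs, on either strand.
Chst15 chr7:132317179-132317478: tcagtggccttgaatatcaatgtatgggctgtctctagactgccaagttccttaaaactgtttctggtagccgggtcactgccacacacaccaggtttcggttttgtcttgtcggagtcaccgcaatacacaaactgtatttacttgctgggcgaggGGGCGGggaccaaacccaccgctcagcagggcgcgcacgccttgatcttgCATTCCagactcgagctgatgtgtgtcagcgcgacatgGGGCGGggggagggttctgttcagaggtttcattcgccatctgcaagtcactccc
Chst15 chr7:132316977-132317276: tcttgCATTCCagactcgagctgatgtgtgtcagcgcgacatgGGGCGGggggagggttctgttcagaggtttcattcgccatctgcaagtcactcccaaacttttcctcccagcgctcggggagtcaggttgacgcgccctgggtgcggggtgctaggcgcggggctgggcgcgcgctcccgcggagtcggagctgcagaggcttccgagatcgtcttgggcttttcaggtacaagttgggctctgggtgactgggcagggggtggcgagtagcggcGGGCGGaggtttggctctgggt
Each window held 2 copies of GGGCGG and 1 GGAATG on the reverse strand, with GC contents of 55.0% and 64.3%. The windows share the GGAATG and 1 GGGCGG, since they overlap. No CAGGTG or TATAAA lay in either.

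Chst11, which encodes a chondroitin 4-O-sulfotransferase, was set apart in E1KD. It read 2.69, 2.44 and 2.44 in L2P, 2.38, 2.66 and 2.27 in L1P, 2.36, 2.80 and 2.89 in M1P, and 5.03, 4.46 and 4.55 in E1KD, against 2.26, 2.39 and 2.59 in NMuMG. The 3 E1KD arrays were above all 12 others, and the other lines overlapped near the low end of the scale. In M1P against E1KD, the gene fell 3.99-fold (95% interval of the log2 difference -2.39 to -1.60, adjusted p = 4.40e-05, lower on 3 of 3 arrays), and it passed in all 24 alternatives, with adjusted p-values of 7.92e-06 to 0.0316. Without M1P array 1 the difference was -1.84 (adjusted p = 0.000106), and with M1P array 3 alone it was -1.79. The differences from E1KD were -2.16 ± 0.18 in L2P and -2.24 ± 0.18 in L1P, and E1KD exceeded NMuMG by 2.27 ± 0.18. Its second probe set, 1450509_at, stayed between 2.48 and 3.25 on all arrays and showed neither difference (0.19 for M1P against E1KD and -0.24 for E1KD against NMuMG). L1P against M1P did not pass (-0.25 ± 0.18, adjusted p = 0.272).

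Sdc1 encodes syndecan-1, the main syndecan of simple epithelia. Signals were 11.07, 10.90 and 10.92 in L2P, 11.11, 11.29 and 11.00 in L1P, 11.80, 11.47 and 11.11 in M1P, and 10.49, 10.34 and 10.63 in E1KD, against 11.36, 11.85 and 11.31 in NMuMG. The E1KD arrays were the lowest, below every array of the other 4 lines, and M1P overlapped NMuMG. In M1P against E1KD the gene rose (0.98 ± 0.18, 1.97-fold, adjusted p = 0.00492, higher on 3 of 3 arrays). The difference was 0.63 with M1P array 3 alone and did not pass (adjusted p = 0.116), nor did it in the fit of only M1P and E1KD (0.106), within 0.000713 to 0.116 over 24 alternatives. The differences from E1KD were 0.48 ± 0.18 in L2P and 0.65 ± 0.18 in L1P, and E1KD differed from NMuMG by -1.02 ± 0.18. All 4 probe sets of Sdc1 shared these signs, from 0.56 to 0.98 for M1P against E1KD and from -1.04 to -0.66 for E1KD against NMuMG. L1P against M1P did not pass (-0.33 ± 0.18, adjusted p = 0.152), but passed without M1P array 3 (-0.50, adjusted p = 0.0312), and the difference was 0.02 with M1P array 3 alone (adjusted p = 0.963).

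Sdc4, the gene of syndecan-4, a syndecan of focal adhesions, varied least between E1KD and NMuMG. Its signals were 10.25, 9.83 and 9.56 in L2P, 9.97, 9.95 and 9.75 in L1P, 10.93, 10.55 and 10.33 in M1P, and 10.19, 9.87 and 10.07 in E1KD, against 10.16, 10.17 and 10.18 in NMuMG. M1P lay above all other arrays, L1P lay below NMuMG, and L2P and E1KD overlapped each other and both of these lines. The differences were -0.16 ± 0.18 for L2P and -0.15 ± 0.18 for L1P against E1KD, and -0.13 ± 0.18 for E1KD against NMuMG. The gene rose in M1P against E1KD (0.56 ± 0.18, 1.48-fold, adjusted p = 0.0378) and fell in L1P against M1P (-0.71 ± 0.18, adjusted p = 0.0128). Neither passed with M1P array 3 alone (0.29, adjusted p = 0.505, and -0.44, adjusted p = 0.246). The first call also ended in the fit of only 2 lines (0.159) and without E1KD array 1 (0.052), 2 (0.137) or 3 (0.0801), M1P array 1 (0.152) or 2 (0.0539), or L1P array 1 (0.0503) or 2 (0.0501), in a range of 0.0105 to 0.505. The second ended in the fit of only 2 lines (0.0911) and without L1P array 3 (0.0556), in a range of 0.00286 to 0.246. The second probe set, 1448793_a_at, gave 0.75 and -0.98 for these comparisons and -0.38 for E1KD against NMuMG.

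Gpc1 encodes glypican-1, a heparan sulfate proteoglycan held in the membrane by a lipid anchor. It read 5.96, 6.11 and 5.70 in L2P, 5.53, 5.24 and 5.28 in L1P, 6.98, 6.47 and 6.53 in M1P, and 6.54, 6.23 and 6.16 in E1KD, against 3.88, 3.61 and 3.94 in NMuMG. All 12 arrays of silenced lines were above NMuMG, and among them L1P was the lowest, below every L2P, M1P and E1KD array. E1KD exceeded NMuMG by 2.50 ± 0.17 (5.67-fold), and the differences from E1KD were -0.39 ± 0.17 in L2P and -0.96 ± 0.17 in L1P. Tested in L1P against M1P, Gpc1 fell (-1.31 ± 0.17, 2.48-fold, adjusted p = 0.000465), in all 24 alternatives (0.000247 to 0.0427), and the difference was -1.15 without M1P array 1 (adjusted p = 0.000947) and -1.18 with M1P array 3 alone. M1P against E1KD (0.35 ± 0.17, adjusted p = 0.126) and L2P against L1P (0.58 ± 0.17, 95% interval 0.21 to 0.94, adjusted p = 0.699) did not pass. The gene has 1 probe set.

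**Figure D3:**
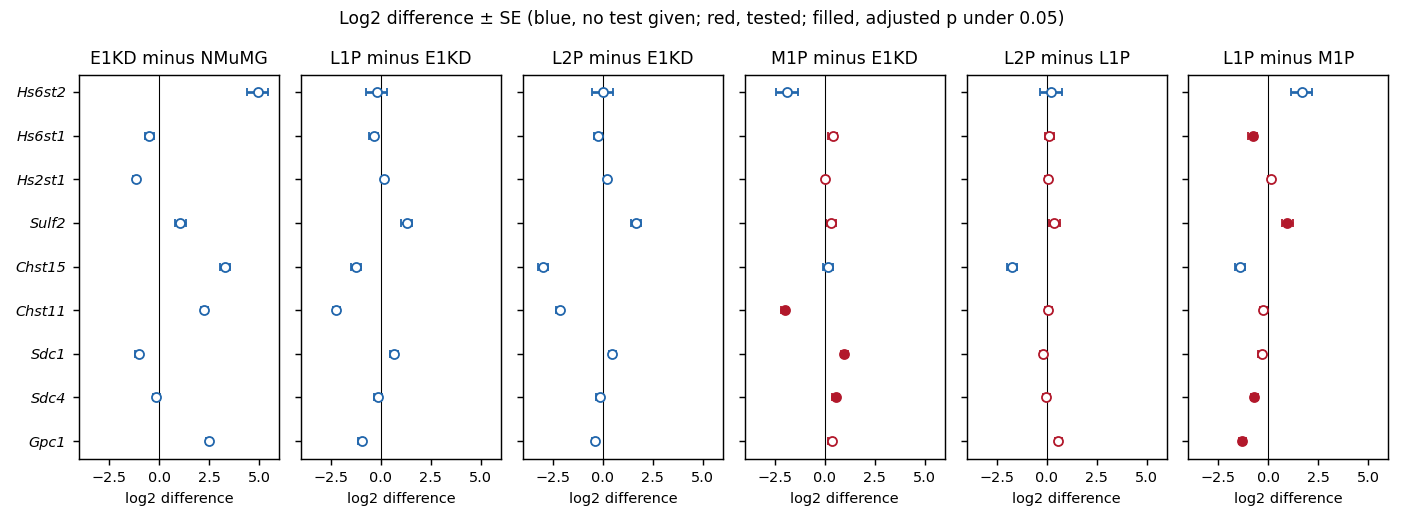
Log2 difference ± standard error (x axis) of 9 genes (y axis) in 6 comparisons, with blue where no test is given and red where the gene was tested, filled where adjusted p is under 0.05. The largest differences without a test are Hs6st2 and Chst15 in E1KD minus NMuMG (4.93 and 3.28), and the largest with one is Chst11 in M1P minus E1KD (3.99-fold lower).

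The comparison of E1KD with NMuMG sets 1 silenced line against its parent. Without a line with a control vector, the silencing cannot be told apart from other differences between these lines. Of the 9 measured genes, 5 (Hs6st2, Chst15, Gpc1, Chst11 and Sulf2) were higher in E1KD and 4 lower. Without overlap between arrays, 5 of the 9 were higher and 3 lower, where 13.7% of all genes were higher and 22.3% lower in this way; the list was chosen with this comparison, so nothing is read from the count. The rest of the pathway was tested through 69 other genes of chain assembly, modification, sulfate supply, core proteins and breakdown. Of these, 1 rose and 4 fell, where 3.00% of all genes rose and 6.49% fell, with a median of -0.13, against -0.07 over all genes. Papss2, which makes the sulfate donor PAPS, fell 10.9-fold: it read 2.77, 2.43 and 2.48 in E1KD, against 5.98, 6.12 and 5.92 in NMuMG (-3.45 ± 0.15, adjusted p = 7.57e-09). Its signal was as low in L2P (2.40), L1P (2.48) and M1P (2.82). Tgfbr3, the part-time proteoglycan betaglycan, fell 6.74-fold (-2.75 ± 0.15, adjusted p = 1.25e-07). Csgalnact1, which starts chondroitin chains, fell 2.96-fold (adjusted p = 0.0116, and 0.0564 without NMuMG array 3). The lysosomal beta-glucuronidase gene Gusb rose 2.62-fold (1.39 ± 0.23, adjusted p = 0.00196). B3galt6, a linker galactosyltransferase gene, was the fourth that fell and is named here because the count is small (-1.15 ± 0.25, adjusted p = 0.00904). The count of 5 was 11 without M1P array 1 and 8 without M1P array 3, and the 5 genes were among them. Over all genes, 1727 passed in the main fit, and 3083 and 2280 without these arrays.

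The comparison of M1P with E1KD addresses growth as a tumour in the fat pad. Of the 7 genes tested, Sdc1 and Sdc4 rose, Chst11 fell and 4 did not pass, where 17.7% of all genes rose and 9.86% fell. Without M1P array 3 the count of 3 was 5, with Hs6st1 and Sulf2 added, and with M1P array 3 alone it was 1, Chst11. The median of the 7 was 0.35, against 0.20 over all genes. Among the 69 pathway genes, 16 rose and 5 fell, with a median of 0.30. Sdc2, the gene of syndecan-2, read 6.28, 6.31 and 6.34 in M1P, against 4.71, 4.49 and 5.15 in E1KD, and rose (1.53 ± 0.15, 2.88-fold, adjusted p = 6.70e-05, and 1.56 with M1P array 3 alone). Chpf2, of chondroitin polymerisation, rose 3.02-fold (adjusted p = 0.000326), and the log2 difference was 1.28 with M1P array 3 alone. Sgsh, a lysosomal heparan sulfatase gene, rose (1.60 ± 0.32, adjusted p = 0.00732), but had 0.97 and an adjusted p of 0.165 with that array alone. Ids, a lysosomal iduronate sulfatase gene, fell (-2.20 ± 0.53, adjusted p = 0.0139; 0.0598 without E1KD array 2). The falls of Dsel, a dermatan sulfate epimerase gene (-1.99 ± 0.61, adjusted p = 0.0325), and Glce, the heparan sulfate epimerase gene (-1.77 ± 0.56, adjusted p = 0.0348), shrank to -0.75 and -0.78 with M1P array 3 alone (0.608 and 0.32). On M1P array 1 Glce read 4.90, against 7.33 and 7.61 on the other M1P arrays and 8.26 to 8.46 in E1KD. Both also missed the threshold without E1KD array 1, 2 or 3 or M1P array 1, and Dsel without M1P array 2. The count of 21 was 10, 6 and 9 without E1KD arrays 1, 2 and 3, 7 without M1P array 1 and 40 without M1P array 3. Over all genes, 5015 passed in the main fit, and 3136, 1106, 2396, 2021 and 8510 in the same order. The pathway count fell further in other settings. With M1P array 3 alone it was 4, and in the fit of only M1P and E1KD it was 1, Sdc2.

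In M1P, 70.1% of all genes were higher than in E1KD, and so were markers of other cell types. Higher were 7 of 9 fibroblast, 7 of 7 endothelial, 9 of 9 macrophage and leukocyte, and 8 of 8 alveolar and airway genes, of which 1, 1, 0 and 2 passed. The mean signal of the fibroblast list was 3.47 to 4.15 on the M1P arrays, against 3.25 to 3.44 in E1KD, that of the endothelial list 3.53 to 3.69, against 3.24 to 3.52, and that of the macrophage and leukocyte list 4.67 to 5.12, against 4.47 to 4.62. For the alveolar and airway list it was 4.98 to 5.64, against 4.69 to 4.80. Those that passed were Col1a2 (5.18 in M1P and 4.10 in E1KD), Kdr (4.86 and 4.29), Foxj1 (7.54 and 5.55) and Ager (5.61 and 5.15), all above the array medians in M1P. Above the median of all values in M1P were 2 of 9 fibroblast, 2 of 7 endothelial and 5 of 9 macrophage and leukocyte genes. So were 5 of 8 alveolar and airway genes. In E1KD the counts were 0, 2, 4 and 5 in the same order. Cd14 averaged 10.85 in M1P and 10.22 in E1KD, and Aqp5 7.37 and 7.28. Below the array medians in both lines were, among others, Ptprc (2.49 in both) and Pecam1 (2.95 in M1P and 2.87 in E1KD). Col3a1 (3.31 in M1P and 2.61 in E1KD) and Scgb1a1 (2.69 in M1P and 2.63 in E1KD) were too. The part of other cells in the M1P differences was not tested. In such bulk RNA a lower share of cells with a transcript and less of it per cell cannot be told apart.

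The comparisons of both lung lines with E1KD set cells recovered from the lung after fat pad implants against the line from which they derive. In L2P, Sulf2 was higher and Chst15 and Chst11 were lower than in E1KD on all arrays, and the same held in L1P. Without overlap between arrays, 2 of the 9 genes were higher and 3 lower in L2P, where 10.4% and 9.59% of all genes were, and 3 were higher and 3 lower in L1P, where 10.4% and 13.4% were; both comparisons entered the choice of genes, so nothing is read from these counts. L2P and L1P share the E1KD arrays as their baseline. Of 9 macrophage and leukocyte genes, 4 were higher and 5 lower than in E1KD in each lung line, and 0 passed. Cd68 averaged 6.18 in L2P, 5.65 in L1P and 5.01 in E1KD, and Lyz2 5.20, 5.03 and 4.19. Lower in both lung lines were Cd14 (9.84, 9.74 and 10.22 in the same order) and Csf1r (4.83, 4.78 and 5.04). Of 8 alveolar and airway genes, 8 were lower in L2P and 7 in L1P, where 49% and 44.5% of all genes were higher. Among these, 1 gene, Aqp5, passed in each lung line, as a fall (6.26 in L2P, 5.65 in L1P and 7.28 in E1KD). The part of other cells in these differences was not tested. Of the 69 pathway genes, 4 rose and 0 fell in L2P, where 2.14% of all genes rose and 1.64% fell (median 0.08, against -0.00 over all genes). An unadjusted p under 0.05 in limma was found in L2P for 14 of the 69, where 2125 of all 18193 genes had one. Hpse, the gene of heparanase, which cuts heparan sulfate chains, read 4.38, 4.87 and 5.22 in L2P, against 3.10, 3.32 and 3.48 in E1KD. Hpse rose 2.87-fold in L2P (1.52 ± 0.29, adjusted p = 0.00851). It also rose in M1P against E1KD (1.06 ± 0.29, adjusted p = 0.0225) and did not pass in L1P against E1KD (0.27 ± 0.29, adjusted p = 0.957). Sulf1, the second endosulfatase gene, read 3.48, 4.42 and 4.53 in L2P, against 2.75, 2.61 and 2.94 in E1KD, and rose 2.59-fold (1.37 ± 0.25, adjusted p = 0.0058). Sgsh rose (1.41 ± 0.32, adjusted p = 0.0273), but did not pass without E1KD array 1 (0.129) or 2 (0.0686) or L2P array 1 (0.11) or 2 (0.0795), or after quantile normalization (0.0632). Sdc2 was the fourth (0.89 ± 0.15, adjusted p = 0.00299), named because the count is small. In L1P 11 of the 69 pathway genes had an unadjusted p under 0.05 in limma, where 1823 of all 18193 genes had one. After adjustment 1 pathway gene rose and 0 fell in L1P, where 1.19% of all genes rose and 1.29% fell (median 0.05, against -0.03 over all genes). That gene was Dse, a dermatan sulfate epimerase gene, with 4.79, 4.98 and 5.12 in L1P, against 3.41, 3.39 and 3.75 in E1KD (1.45 ± 0.25, adjusted p = 0.00489). The L1P count was 2 without E1KD array 3 or M1P array 1, and 3 without M1P array 3. Over all genes, 452 passed in the main fit, and 294, 836 and 604 in the same order.

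The comparison of L2P with L1P addresses the second lung passage. Of the 7 genes tested 0 passed in limma, where 0.0934% of all genes rose and 0.0495% fell. Of the 7, 1, Gpc1, had an unadjusted p under 0.05 in limma, where 414 of all 18193 genes had one. The differences of the 7 ran from -0.17 (Sdc1) to 0.58 (Gpc1), and the 95% intervals of Hs6st1 (-0.36 to 0.63), Hs2st1 (-0.21 to 0.36), Sdc1 (-0.56 to 0.23) and Sdc4 (-0.40 to 0.38) all held 0. Without L2P array 1 the differences included 0.24 for Sulf2, 0.00 for Hs6st1 and -0.20 for Sdc4, with 0 passing. Of the pathway genes 0 of 69 passed, and 4 had an unadjusted p under 0.05 in limma, where 414 of all 18193 genes had one. Without L2P array 1 the count passing was 1, where 34 of all genes passed, against 26 in the main fit. The lower Chst15 in L2P, given above without a test, was larger than any of these.

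The comparison of L1P with M1P sets 1 lung passage against 1 mammary passage of the silenced line. Sulf2 rose, and Gpc1, Hs6st1 and Sdc4 fell, 4 of 7 genes tested, where 13.6% of all genes rose and 25.9% fell. The count was 2 without L1P array 3 and 2, Sulf2 and Gpc1, with M1P array 3 alone. The median of the 7 was -0.33, against -0.25 over all genes. Hs6st2, given without a test, was higher in L1P by 1.66 ± 0.54, by 0.84 without M1P array 1 and by 0.55 with M1P array 3 alone. Among the pathway genes 9 rose and 20 fell (median -0.33). Dse read 4.79, 4.98 and 5.12 in L1P, against 2.64, 2.37 and 2.33 in M1P, and rose 5.73-fold (2.52 ± 0.25, adjusted p = 7.91e-05, and 2.64 with M1P array 3 alone). Slc26a2, a sulfate transporter gene (2.57 ± 0.77, adjusted p = 0.023), and Glce (2.21 ± 0.56, adjusted p = 0.0124) rose, and had 1.16 and 1.21 with M1P array 3 alone (0.304 and 0.101). Slc26a2 also missed the threshold without M1P array 1 (0.0675) or L1P array 2 (0.0562) or 3 (0.0805). Chpf2 fell 2.64-fold (adjusted p = 0.000601). Hs3st1, a heparan sulfate 3-O-sulfotransferase gene (-1.78 ± 0.34, adjusted p = 0.00409), and B3gat3, a linker glucuronosyltransferase gene (-1.33 ± 0.25, adjusted p = 0.00364), fell, and had -0.94 (0.141) and -0.82 (0.0604) with that array alone. The count of 29 was 12 without M1P array 1, and 15, 15 and 10 without L1P arrays 1, 2 and 3. Over all genes, 7186 passed in the main fit, and 3263, 4591, 4528 and 2489 in the same order.

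Markers of other cell types moved with L1P against M1P as well. Lower in L1P were 9 of 9 fibroblast, 7 of 7 endothelial, 6 of 9 macrophage and leukocyte, and 8 of 8 alveolar and airway genes, of which 4, 1, 3 and 4 passed, where 28.5% of all genes were higher. The mean signal of the fibroblast list was 3.24 to 3.28 on the L1P arrays, against 3.47 to 4.15 in M1P, that of the endothelial list 3.17 to 3.46, against 3.53 to 3.69, and that of the macrophage and leukocyte list 4.50 to 4.78, against 4.67 to 5.12. For the alveolar and airway list it was 4.33 to 4.41, against 4.98 to 5.64, with Foxj1 at 4.88 in L1P and 7.54 in M1P. Their part in the L1P differences was not tested.

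**Figure D4:**
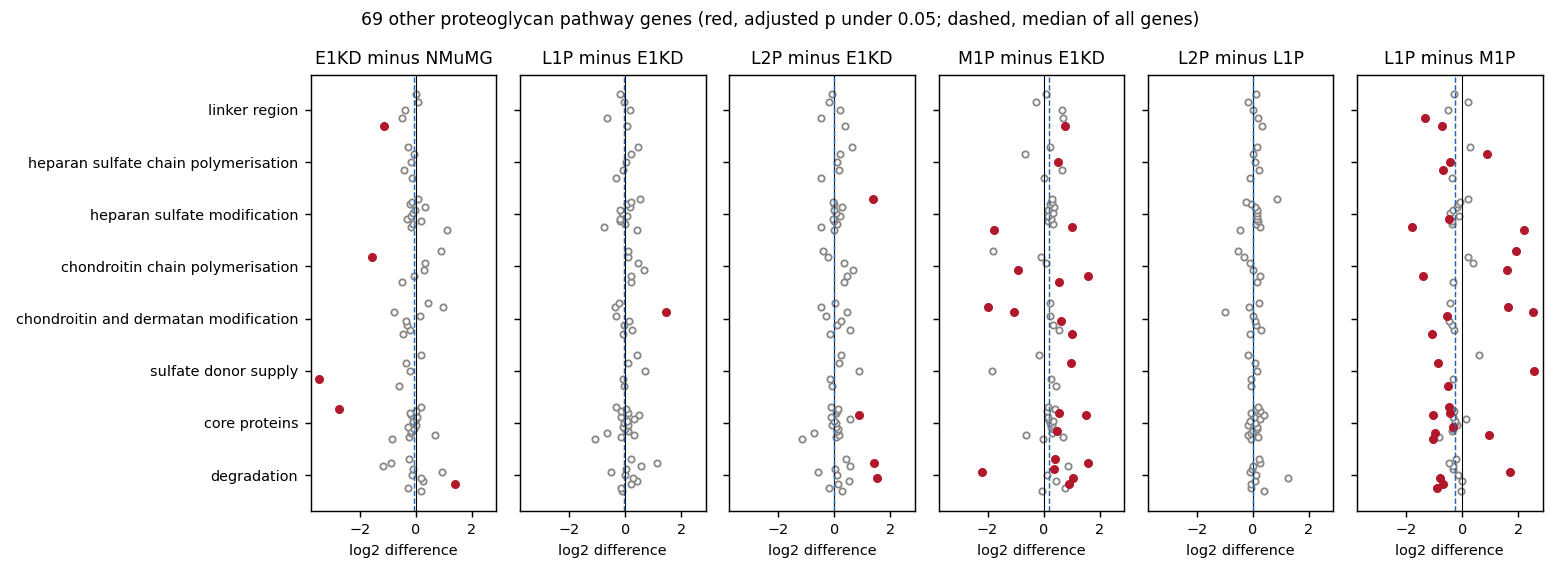
Log2 difference (x axis) of 69 other proteoglycan pathway genes, grouped by role (y axis), in 6 comparisons, 1 point a gene, red where adjusted p is under 0.05, with a dashed line at the median of all genes. In E1KD minus NMuMG the points far to the left are Papss2 (-3.45) and Tgfbr3 (-2.75), and the comparisons with M1P hold 21 and 29 red points.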

How the data were processed

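RNA of 5 lines was measured on 15 arrays, 3 a line, grouped by the labels. Deposited were log2 signals, 1 for each probe set and array, made by the authors with RMA, MAS5 and the Affymetrix Expression Console per the submitters' processing notes; the sources used here give no version or role for them. No detection calls were used, so low signal and no signal are not told apart and differences near the floor are compressed. Arrays carry no depth; 3 arrays a line limit the precision.

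The platform annotation gave probe sets their genes (34945 with 1 symbol, 932 with several, 9160 with none, 64 controls), with symbols updated through RefSeq (GRCm38.p6) for 34741. The probe set of highest mean stood for each of 18193 genes. limma 3.58.1 in R 4.3.3 fitted 1 coefficient per line to all 15 arrays, with two-sided moderated tests adjusted by Benjamini and Hochberg over 18193 genes; under 0.05 a gene is said to have risen or fallen. Separate cultures are not stated in the labels, so p-values measure only the spread between these arrays, which may be technical. The fit was tested on simulated data with independent noise and, for each gene, the same spread in every line. It therefore does not check the fit where 1 line varies more, as M1P does.

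The members, the pathway list (69 of 72 genes measured) and the alternatives were chosen with earlier results of these data known. Text names all members, up to 3 of the largest pathway rises and falls per comparison with no overlap between arrays, and the 3 genes most correlated with Hs6st2 and Chst15. Alternatives were 9 settings and 15 fits with 1 array left out. Replicate numbers paired the arrays only in part: 15 of 30 same-numbered pairs correlated over 0.1 in their deviations, from -0.5 to 0.75. Array 1 of E1KD, M1P, L1P and L2P correlated at 0.37 to 0.75 with each other. Array 3 of NMuMG, M1P, L1P and L2P did so at 0.28 to 0.69, while array 3 of E1KD had -0.36 to -0.19 with these. The main fit holds no replicate term.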

Additional observations from a re-analysis of the deposited data

Results flagged for a closer look

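4 genes differed between the mammary and the lung passage in their change from E1KD, tested as L1P minus M1P in the same fit (limma). In this comparison 13.6% of all genes rose and 25.9% fell. In the fit of only L1P and M1P, 1 of the 4, Gpc1, passed. For Hs6st1 the value was -0.78, from a change against E1KD of -0.37 in L1P and 0.41 in M1P. For Sulf2 it was 0.95, from 1.28 in L1P and 0.32 in M1P. For Sdc4 it was -0.71, from -0.15 in L1P and 0.56 in M1P. For Gpc1 it was -1.31, from -0.96 in L1P and 0.35 in M1P. With M1P array 3 alone the values were -0.28, 1.68, -0.44 and -1.18 in the same order, in a fit whose spread comes from the other lines. Without M1P array 1 they were -0.57 (adjusted p = 0.0865), 1.21 (0.00867), -0.55 (0.0473) and -1.15 (0.000947) in limma. The part of the M1P arrays' spread in these values was not tested. Both passages share the E1KD arrays, which cancel in L1P minus M1P. No single value was screened for outliers, since each line has 3 arrays.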

How the results depend on the processing

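Values of the 7 tested genes in 3 comparisons were recomputed 504 times: 464 kept their direction and side of the threshold, 21 lost and 3 gained a call, and 16 turned sign with neither value past the threshold. With M1P array 3 alone these were Hs6st1 (-0.09) and Sulf2 (-0.41) in M1P against E1KD, and Sdc1 (0.02) in L1P against M1P. For Hs2st1 they were -1.09 with the probe set of largest variance and, with 1 array left out, values in the range -0.05 to 0.14 in M1P against E1KD, -0.10 with that probe set, -0.05 with weights and, with 1 array left out, a range of -0.06 to 0.17 in L2P against L1P, and -0.00 with weights in L1P against M1P. In L2P against L1P, Sdc4 had 0.07 with that probe set, and with 1 array left out Sdc4 ranged over -0.20 to 0.15 and Chst11 over -0.00 to 0.20. Values given without a test moved by over 1 SD in 8 of 792 cases, all in Hs6st2, Hs2st1, Chst15 or Sdc4, and 8 of the 792, none of them clear of overlap between arrays, turned sign.

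For tested genes passing, the fit of only 2 lines gave 1 for M1P with E1KD and 1 for L1P with M1P, and M1P array 3 alone gave 1 and 2. Leaving out 1 array gave 2 to 5 in both. L2P with L1P stayed at 0 throughout.

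Pathway counts moved more. Counts over all 18193 genes moved under the same settings. For M1P against E1KD, 5015 passed in the main fit, 67 in the 2-line fit and 1106 to 8510 with 1 array left out. For L1P against M1P these were 7186, 288 and 2489 to 9863. For E1KD against NMuMG, 1727 passed in the main fit, 3439 in the 2-line fit and 4113 with weights. For L1P against E1KD these were 452, 1195 and 1591. The counts below are of the 69 pathway genes. The E1KD against NMuMG count was 16 in the 2-line fit, 18 with array weights, 9 with the probe set of largest variance, 13 with M1P array 3 alone and 4 to 11 with 1 array left out. The M1P against E1KD count was 1 in the 2-line fit, 4 with M1P array 3 alone and 6 to 40 with 1 array left out. The L1P against E1KD count was 7 in the 2-line fit, 8 with weights, 5 with M1P array 3 alone and 1 to 3 with 1 array left out. For L2P against E1KD it was 15 with weights and 8 with M1P array 3 alone; for L2P against L1P, 2 and 1, and 0 to 1 with 1 array left out. The L1P against M1P count was 3 in the 2-line fit, 4 with M1P array 3 alone and 10 to 40 with 1 array left out. Weights were made gene by gene, since limma's default estimate did not converge. With M1P array 3 alone, M1P is assumed to vary like the other lines. The cause was not tested.

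The replicate number as a block gave a pathway count of 7 for L2P against E1KD and moved no other count by over 1.5 times. The numbers paired the arrays only in part, and 8 of 15 arrays correlated best with their own number. With the block, 6911 of all genes passed in M1P against E1KD, where 5015 did in the main fit. Other settings lowered this count, to 67 in the 2-line fit and 1106 without E1KD array 2. A quantile normalization moved the median of all genes in M1P with E1KD from 0.20 to 0.18. Signals at the low end of the scale, as for Chst11 outside E1KD (line means of 2.41 to 2.68), limit what can be seen as lower.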
